A study of Mus musculus with 18 samples.

Results

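Interleukins are small secreted proteins through which immune cells, glia and other cells signal to each other, and each acts on cells that carry its receptor. Most receptors are built from a chain that binds the ligand and a chain shared between ligands, such as the common gamma chain, the common beta chain or gp130, and they signal through JAK kinases and STAT factors. The IL-1 family works through its own receptors and MyD88 towards NF-kB, and in the spinal cord IL-1 beta from glia is known for raising the excitability of dorsal horn neurons during inflammatory pain. Analysed here are the genes named as interleukins or interleukin receptors, chosen as every locus with a single gene name that starts with Il and a digit, with 1 locus per name (that with the highest mean over the 6 groups). The rule found 54 genes of 18444 genes with a name of their own: 19 ligands, the antagonist Il1rn, 33 receptors and Il4i1, an enzyme named for its induction by IL-4. Il6, Il10, Il13 and Il17a were not analysed here.

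The tissue was the dorsal part of the lumbar spinal cord (L3-5) of C57BL/6 mice (C57BL/6N in the study's methods) aged 3 months. All mice had received rAAV in the dorsal horn, so no group was free of the injection or of virus: it carried LacZ (the control protein), HDAC4 wt, a histone deacetylase that shuttles between nucleus and cytoplasm, or HDAC4 3SA, a mutant of it that stays in the nucleus. At 24 h before collection the mice received saline or complete Freund's adjuvant (CFA), which causes lasting inflammation of the hindpaw. The 6 groups held 3 mice each, 18 in all. The authors deposited 1 FPKM value per group and gene, over its 3 mice. FPKM count fragments relative to the length of a gene's exons and to the mapped fragments of the library. Wherever a pair of values is given for a vector, saline precedes CFA. No value per mouse and no depth per library was part of these tables, and the study's methods state only a minimum depth, so no spread between mice, no interval and no test over mice was computed here for any difference, and all are descriptions of 6 group values. The p-values that the authors deposited were not used. Each vector was normalized in a run of its own, so levels set across vectors are less sure than those of CFA against saline within a vector. Hdac4 itself, which checks the labels only as far as its reads include the vector's copy, was at 7.41 and 7.72 FPKM in LacZ saline and CFA mice, 10.1 and 10.8 in HDAC4 wt mice and 8.86 and 8.81 in HDAC4 3SA mice.

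At saline, many interleukin receptors and the IL-1 ligands were several times higher in mice with either HDAC4 vector than in LacZ mice. The promoters of 6 genes picked for this difference are printed. They are those of the 12 genes with a log2 ratio of at least 1 at saline for both HDAC4 vectors that had exactly 1 promoter in the reference table. Of the 6, Il1a, Il1b, Il1rl2 and Il7r were under 0.5 FPKM in both LacZ groups. These genes passed the mean of 0.5 FPKM set for counts through the HDAC4 groups, where they are high. Il1a and Il1b encode IL-1 alpha and IL-1 beta, Il1rl2 the IL-36 receptor, Il3ra a chain of the IL-3 receptor, Il7r the alpha chain of the IL-7 receptor and Il21r the receptor of IL-21. Promoters were matched by symbol in RefSeq (GRCm38.p6) for 42 of the 54 genes. Shown are the 250 bases before the start site, read 5′ to 3′ on the strand of the gene, with TATAAA and GAGGAA (on either strand) in capitals, the first the TATA box and the second a core bound by the myeloid ETS factor PU.1.
Il1a (chr2:129309973-129310222, minus strand): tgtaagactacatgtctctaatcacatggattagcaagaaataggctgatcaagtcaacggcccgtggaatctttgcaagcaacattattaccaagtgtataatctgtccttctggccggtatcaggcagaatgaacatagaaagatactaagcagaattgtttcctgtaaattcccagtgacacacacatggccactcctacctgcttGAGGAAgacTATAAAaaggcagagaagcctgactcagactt
Il1b (chr2:129371140-129371389, minus strand): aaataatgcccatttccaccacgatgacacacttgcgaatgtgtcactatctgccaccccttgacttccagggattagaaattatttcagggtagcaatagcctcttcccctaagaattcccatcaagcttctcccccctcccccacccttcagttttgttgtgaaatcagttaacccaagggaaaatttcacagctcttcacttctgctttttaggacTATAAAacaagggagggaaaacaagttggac
Il1rl2 (chr1:40324339-40324588, plus strand): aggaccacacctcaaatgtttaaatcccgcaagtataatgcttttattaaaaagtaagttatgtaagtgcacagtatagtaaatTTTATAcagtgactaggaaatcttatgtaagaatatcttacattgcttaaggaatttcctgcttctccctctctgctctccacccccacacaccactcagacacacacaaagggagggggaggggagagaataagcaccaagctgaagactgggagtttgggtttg
Il3ra (chr14:14346245-14346494, plus strand): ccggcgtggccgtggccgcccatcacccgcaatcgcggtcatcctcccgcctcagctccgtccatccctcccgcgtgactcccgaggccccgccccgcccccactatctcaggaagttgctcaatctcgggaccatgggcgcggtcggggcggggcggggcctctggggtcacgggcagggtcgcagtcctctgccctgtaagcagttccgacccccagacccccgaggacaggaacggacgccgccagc
Il7r (chr15:9529877-9530126, minus strand): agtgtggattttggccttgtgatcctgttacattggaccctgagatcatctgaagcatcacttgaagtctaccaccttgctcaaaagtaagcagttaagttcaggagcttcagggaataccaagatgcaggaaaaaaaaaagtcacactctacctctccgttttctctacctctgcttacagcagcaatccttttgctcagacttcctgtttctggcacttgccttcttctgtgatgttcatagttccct
Il21r (chr7:125603179-125603428, plus strand): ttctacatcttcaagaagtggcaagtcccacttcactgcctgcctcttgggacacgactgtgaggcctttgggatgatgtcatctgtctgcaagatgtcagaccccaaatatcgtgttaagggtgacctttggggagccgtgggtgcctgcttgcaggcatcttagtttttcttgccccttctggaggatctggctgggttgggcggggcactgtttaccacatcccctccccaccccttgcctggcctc

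Counted from the start site, TATAAA begins at -32 in Il1a and at -31 in Il1b, and GAGGAA at -41 in Il1a. In Il1rl2 TATAAA lies on the other strand at -166. In the windows of Il3ra, Il7r and Il21r neither run of letters occurs on either strand, and Il7r holds the STAT pattern TTCNNNGAA at -142. Among all 32841 RefSeq promoters of the same length, 12.4% hold TATAAA, 23.3% GAGGAA and 7.02% TTCNNNGAA on either strand, so each match is a description of letters and not a site.

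A level of 0.5 FPKM in at least 1 group was reached by 47 of the 54 genes: 17 of 19 ligands, Il1rn, 28 of 33 receptors and Il4i1. Of all 18444 genes with a name of their own 16918 reached it, so this level does not set the family apart. Among the 47, 39 had a locus on at least 50% of the gene's exon bases, a limit chosen after seeing the data. The 47 also include Il31ra, Il11ra1 and Il4, whose loci cover less. The mean of the 6 values reached 0.5 FPKM in 38 genes (13 ligands, Il1rn and 24 receptors), which were used for counts. Per group, 32 and 31 genes reached 0.5 FPKM in LacZ saline and CFA mice, 36 and 43 in HDAC4 wt mice, and 37 and 36 in HDAC4 3SA mice. The 7 genes that stayed under 0.5 FPKM in all groups were Il12b, Il23a, Il1rl1, Il6ra, Il9r, Il18rap and Il20rb. Reads were scarcest for these genes in LacZ mice: Cuffdiff marked 14 of the 54 as having too few reads to test there, against 0 with HDAC4 wt and 2 with HDAC4 3SA. Il12b is listed at 0 in LacZ saline mice and Il12a in HDAC4 3SA CFA mice, and no fold is given against these values.

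**Figure D1:**
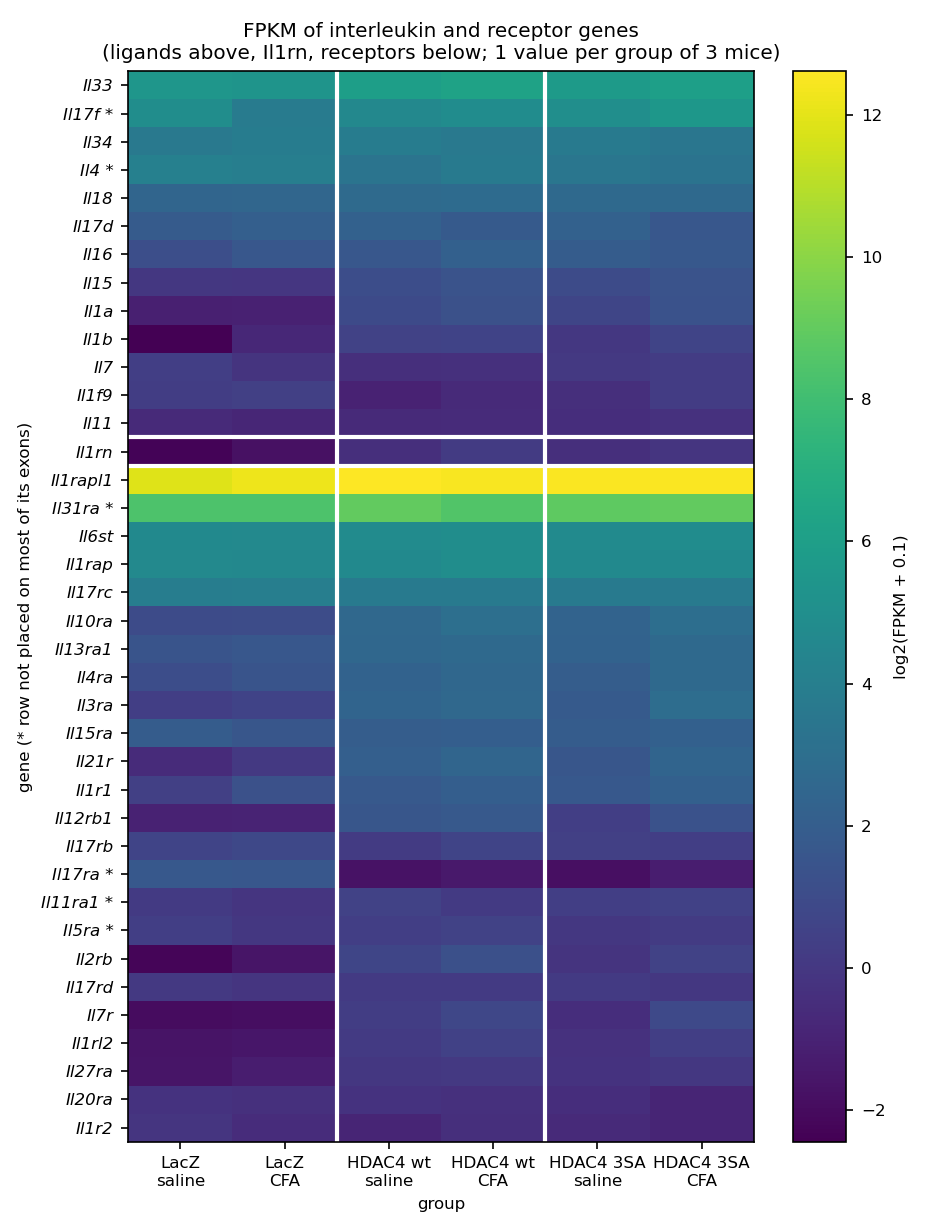
Levels of the 38 genes used for counts, with groups in columns and genes in rows (ligands on top, then Il1rn, then receptors); the colour is log2(FPKM + 0.1), 1 value per group of 3 mice, and an asterisk marks genes whose locus covers under 50% of their exon bases or differs in place between tables. Most rows of the lower block are darker in the LacZ columns, as for Il21r at 0.561 FPKM in LacZ saline against 4.18 in HDAC4 wt saline mice.

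Some of these loci cover little of the exons of the gene they are named for, among them some of the highest values. For 42 genes the place given for the locus covers at least 50% of the gene's exon bases (GENCODE M21, GRCm38) in all 3 tables. For 34 of these it is the only locus of that name there, and for the other 8 (Il10ra, Il11, Il12rb2, Il17d, Il1f9, Il1r2, Il1rapl1 and Il3ra) a further locus of the same name has the same place. Under 50% is covered in 11 genes: Il11ra1, Il12a, Il12b, Il17f, Il1rl1, Il20rb, Il31ra, Il4, Il4i1, Il5ra and Il9r. All 11 places overlap the gene's span. Those of Il17f, Il1rl1 and Il9r lie wholly on its exons and are short, while those of Il31ra and Il11ra1 hold 0 exon bases. Il17ra, a chain of the IL-17 receptor, has another place in the LacZ table (chr6:120484511-120487284, the 3′ end of the gene) than in the others, and was left out of comparisons across vectors: it was at 3.17 and 3.01 FPKM with LacZ, 0.205 and 0.281 with HDAC4 wt, and 0.178 and 0.317 with HDAC4 3SA.

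**Figure D2:**
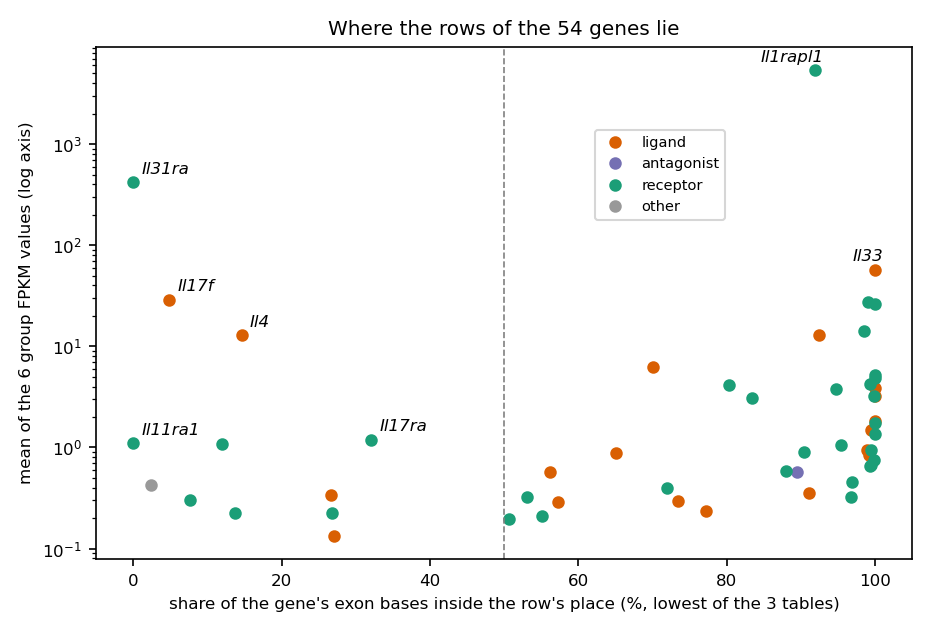
Mean of the 6 group FPKM values (log axis) against the share of the gene's exon bases inside the place of its locus, 1 point per gene (54 genes), coloured by role, with a dashed line at 50%. Il31ra, Il17f and Il4 lie left of the line at high levels, and Il33 and Il1rapl1 lie right of it.

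The locus named Il31ra, for the receptor of the itch cytokine IL-31, was at 337 and 342 FPKM with LacZ, 504 and 369 with HDAC4 wt, and 477 and 502 with HDAC4 3SA. Its place is 188 bases long (chr13:112578172-112578360) and holds 0 exon bases of the gene, so these values are no measure of the receptor. A locus of the same name on the gene's body was at 0.063 FPKM in LacZ saline mice. Il17f, the gene of IL-17F, was at 30.3 and 13.97 FPKM with LacZ, 23.6 and 28.9 with HDAC4 wt, and 31.2 and 46.0 with HDAC4 3SA, at a place of 97 bases (chr1:20787697-20787794) that holds 4.797% of its exon bases. Il4, the gene of the type 2 cytokine IL-4, was at 17.4 and 15.7 FPKM with LacZ, 10.2 and 13.2 with HDAC4 wt, and 10.8 and 9.83 with HDAC4 3SA, but its place (chr11:53567378-53604362) holds 14.6% of its exon bases and all those of the motor protein gene Kif3a. Il1rapl1, which encodes a synaptic adhesion protein of the IL-1 receptor family, had the highest values, 3738 and 4828 FPKM with LacZ, 6244 and 5721 with HDAC4 wt, and 5811 and 5935 with HDAC4 3SA. A second locus of that name has the same place on chromosome X and was at 1.05 FPKM in LacZ saline mice, and the tables do not say which transcripts each holds.

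Among ligands on at least 50% of their exon bases, Il33 was the most abundant in all 6 groups. It encodes IL-33, an alarmin kept in the nucleus of glia and barrier cells, and was at 44.2 and 41.2 FPKM with LacZ, 64.4 and 74.9 with HDAC4 wt, and 53.3 and 66.2 with HDAC4 3SA. All 4 values under HDAC4 vectors were above both LacZ values, by a log2 ratio (with 0.1 FPKM added, as for every log2 ratio here, while folds are plain ratios) of 0.54 at saline for HDAC4 wt and 0.27 for HDAC4 3SA. Il34, a ligand of the CSF1 receptor made by neurons, was at 12.3 and 14.7 FPKM with LacZ, 14.4 and 12.6 with HDAC4 wt, and 13.1 and 11.1 with HDAC4 3SA. Its place also holds all exons of Mtss1l, which has a locus of its own. Il18, an IL-1 family ligand cut into its active form by caspase-1, was at 5.48 and 5.75 FPKM with LacZ, 6.56 and 6.88 with HDAC4 wt, and 6.34 and 6.32 with HDAC4 3SA, a narrow range in which CFA over saline was at most 0.07 on the log2 scale.

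Il17d, an IL-17 family ligand, was at 3.55 and 4.21 FPKM with LacZ, 4.62 and 3.38 with HDAC4 wt, and 4.60 and 3.09 with HDAC4 3SA. It was the only one of the 38 genes that was lower after CFA in HDAC4 3SA mice past the study's fold threshold, a log2 ratio of 0.5 or 1.41-fold, at -0.56 (3.26% of all genes were lower there). A second locus of the same name and place was at 3.21 and 2.96 FPKM in HDAC4 3SA saline and CFA mice, and with all loci of the name summed the log2 ratio was -0.38, so the call was lost. Il16, a chemoattractant of CD4+ cells, was at 2.17 and 3.08 FPKM with LacZ, 3.01 and 4.33 with HDAC4 wt, and 3.76 and 3.18 with HDAC4 3SA. Its log2 ratio of CFA over saline was 0.49 with LacZ, 0.51 with HDAC4 wt and -0.24 with HDAC4 3SA. Its place also holds the exons of Stard5. Il15, which sustains T and natural killer cells, was at 0.916 and 0.861 FPKM with LacZ, 2.11 and 2.53 with HDAC4 wt, and 1.87 and 2.60 with HDAC4 3SA. Its 4 values under HDAC4 vectors were at least 1.87 FPKM and both LacZ values under 1 FPKM.

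Il1b and Il1a were at 0.0842 and 0.36 FPKM in LacZ saline mice and at 0.909 FPKM or more in all 4 groups with HDAC4 vectors. Il1b was at 0.0842 and 0.4997 FPKM with LacZ, 1.32 and 1.38 with HDAC4 wt, and 0.909 and 1.45 with HDAC4 3SA. It was 5.93-fold higher after CFA in LacZ mice (log2 ratio 1.70). The ratio was 1.05 with HDAC4 wt and 1.59 with HDAC4 3SA. Both HDAC4 saline values already stood above the LacZ CFA value. The LacZ ratio divides by a value below 0.1 FPKM. Il1a was at 0.360 and 0.386 FPKM with LacZ, 1.85 and 2.39 with HDAC4 wt, and 1.53 and 2.41 with HDAC4 3SA. It was close to level between the LacZ groups and higher after CFA by a log2 ratio of 0.35 with HDAC4 wt and 0.63 with HDAC4 3SA. Il1rn, whose protein blocks the IL-1 receptor, was at 0.105 and 0.200 FPKM with LacZ, 0.648 and 1.01 with HDAC4 wt, and 0.651 and 0.805 with HDAC4 3SA. It was higher after CFA past the threshold in LacZ (0.55) and HDAC4 wt mice (0.57), and by 0.27 in HDAC4 3SA mice. Il1f9, the gene of IL-36 gamma, went the other way at saline, at 1.12 and 1.23 FPKM with LacZ, 0.391 and 0.539 with HDAC4 wt, and 0.652 and 1.09 with HDAC4 3SA. Its level was 0.35-fold that of LacZ in HDAC4 wt saline and 0.58-fold in HDAC4 3SA saline mice.

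The other ligands that reached 0.5 FPKM in a group were Il7, Il11, Il25, Il12a, Il17b and Il27, with means from 0.233 FPKM (Il27) to 0.888 FPKM (Il7). Il7, which supports lymphocyte survival, was the one of these past the threshold at a mean of at least 0.5 FPKM: it was at 1.17 FPKM in LacZ saline and 0.779 in LacZ CFA mice, a log2 ratio of -0.53. Il12a, with a subunit of IL-12 as its product, was at 0.613 FPKM in HDAC4 wt CFA mice, on a locus with 26.6% of its exon bases.

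Il6st, Il1rap, Il17rc and Il15ra differed less between the 6 groups than Il10ra, Il21r and Il3ra described further on. Il6st encodes gp130, the signalling chain of the IL-6 family, and was at 25.8 and 24.9 FPKM with LacZ, 28.6 and 30.4 with HDAC4 wt, and 27.3 and 29.04 with HDAC4 3SA. Il1rap, the accessory chain of the IL-1, IL-33 and IL-36 receptors, was at 25.2 and 23.7 FPKM with LacZ, 26.0 and 30.3 with HDAC4 wt, and 26.2 and 25.9 with HDAC4 3SA. Il17rc, a chain of the IL-17 receptor, was at 15.1 and 15.8 FPKM with LacZ, 13.3 and 13.3 with HDAC4 wt, and 13.6 and 13.7 with HDAC4 3SA, although its place also holds all exons of Creld1 and Prrt3, and Creld1 has no locus of its own. Il15ra, which presents IL-15, was at 3.75 and 2.85 FPKM with LacZ, 3.87 and 4.04 with HDAC4 wt, and 3.79 and 4.39 with HDAC4 3SA. Log2 ratios for CFA and for the saline levels of these 4 genes ran from -0.39 (Il15ra in LacZ CFA) to 0.22 (Il1rap in HDAC4 wt CFA).

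Il10ra, Il21r and Il3ra, receptors of immune cells, were lowest in both LacZ groups, intermediate in HDAC4 3SA saline mice and highest in a CFA group of an HDAC4 vector. Il10ra, the ligand-binding chain for the anti-inflammatory IL-10, was at 1.89 and 1.98 FPKM with LacZ, 6.10 and 8.21 with HDAC4 wt, and 4.96 and 7.81 with HDAC4 3SA. Il21r was at 0.561 and 0.934 FPKM with LacZ, 4.18 and 5.47 with HDAC4 wt, and 2.94 and 5.17 with HDAC4 3SA. Il3ra, the IL-3 chain that pairs with the common beta chain, was at 1.18 and 1.38 FPKM with LacZ, 5.16 and 6.15 with HDAC4 wt, and 3.47 and 7.44 with HDAC4 3SA. In each of these 3 genes the lowest HDAC4 value was above the higher LacZ value, and HDAC4 3SA CFA mice stood above HDAC4 3SA saline mice by log2 ratios of 0.64, 0.80 and 1.08. Further loci of the names Il10ra and Il3ra at the same places were lower, at 0.292 and 0.517 FPKM in LacZ saline mice.

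The chains of the IL-4 and IL-13 receptor were likewise lower in both LacZ groups than in any group with an HDAC4 vector, with smaller steps. Il4ra was at 2.03 and 2.63 FPKM with LacZ, 4.78 and 5.86 with HDAC4 wt, and 3.88 and 6.29 with HDAC4 3SA. Il13ra1 was at 2.62 and 3.01 FPKM with LacZ, 5.88 and 6.48 with HDAC4 wt, and 4.74 and 6.42 with HDAC4 3SA. Il4ra was past the threshold after CFA in HDAC4 3SA mice (0.68) and Il13ra1 was just under it (0.43), while at saline both stood above LacZ by 1.19 and 1.14 in HDAC4 wt mice.

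Il12rb1, Il2rb and Il7r, chains of receptors of lymphocytes, were below 0.5 FPKM in both LacZ groups. Il12rb1, a chain of the IL-12 and IL-23 receptors, was at 0.401 and 0.424 FPKM with LacZ, 2.85 and 3.32 with HDAC4 wt, and 1.16 and 2.43 with HDAC4 3SA. Il2rb, shared by IL-2 and IL-15, was at 0.109 and 0.233 FPKM with LacZ, 1.55 and 2.22 with HDAC4 wt, and 0.793 and 1.37 with HDAC4 3SA. Il7r was at 0.163 and 0.176 FPKM with LacZ, 1.12 and 1.59 with HDAC4 wt, and 0.614 and 1.71 with HDAC4 3SA. Its log2 ratio of CFA over saline with HDAC4 3SA, 1.34, was the largest of the 38 genes, although Cuffdiff had too few reads to test it in LacZ mice. Il12rb1 and Il3ra followed at 1.01 and 1.08 in HDAC4 3SA mice, against 0.21 and 0.25 in HDAC4 wt mice. Whether these changes differ between the vectors was not tested, as no value per mouse is given.

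Of the receptors for the IL-1 family, Il1r1, the signalling IL-1 receptor, was at 1.22 and 2.37 FPKM with LacZ, 3.30 and 4.04 with HDAC4 wt, and 3.10 and 4.50 with HDAC4 3SA. It was 1.95-fold higher after CFA with LacZ, 1.23-fold with HDAC4 wt and 1.45-fold with HDAC4 3SA. Il1rl2 was at 0.216 and 0.248 FPKM with LacZ, 0.973 and 1.26 with HDAC4 wt, and 0.699 and 1.16 with HDAC4 3SA. Il27ra, a receptor of IL-27 in the IL-6 family, was at 0.236 and 0.317 FPKM with LacZ, 0.911 and 0.954 with HDAC4 wt, and 0.738 and 0.890 with HDAC4 3SA. Il1r2, the decoy receptor that binds IL-1 without signalling, was at 0.817 FPKM in LacZ saline, 0.434 in HDAC4 wt saline and 0.537 in HDAC4 3SA saline mice, and was just past the threshold after CFA with HDAC4 wt (0.50). With the 3 loci of its name summed, that log2 ratio was 0.29 and the call was lost, and the saline levels were 1.16, 1.13 and 1.10 FPKM in the same order of vectors. The remaining receptors that reached 0.5 FPKM in a group were Il17rb, Il17rd, Il20ra, Il11ra1, Il5ra, Il18r1, Il1rapl2, Il2ra and Il12rb2. Of these, Il18r1, a chain of the IL-18 receptor, had the largest range, from 0.0348 FPKM in LacZ saline to 1.03 in HDAC4 wt saline mice. Il4i1 reached 0.5 FPKM in 2 groups, with 2.38% of its exon bases covered.

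After CFA in LacZ mice, 5 of the 38 genes were higher past the threshold (Il1b, Il1rn, Il1r1, Il21r and Il2rb) and 2 were lower (Il7 and Il17f, the latter on 97 exon bases). Il1b, Il1rn and Il2rb were under 0.5 FPKM in both LacZ groups and passed the mean through the HDAC4 groups, so that 2 of the 5, Il1r1 and Il21r, reached that level in LacZ mice. Of all 15898 genes at that mean level, 4.48% were higher and 2.27% lower by the same rule. In HDAC4 wt mice 3 of 38 were higher (Il16, Il1rn and Il1r2) and 0 lower, against 4.84% and 3.13% of all genes. In HDAC4 3SA mice 14 of 38 were higher and 1 lower, against 8.88% and 3.26% of all genes. The 14 were 10 of 24 receptors (Il10ra, Il4ra, Il3ra, Il21r, Il1r1, Il12rb1, Il17ra, Il2rb, Il7r and Il1rl2) and 4 of 13 ligands (Il1a, Il1b, Il1f9 and Il17f, the latter on 97 exon bases). Il17ra was under 0.5 FPKM in both HDAC4 3SA groups and passed the mean through its LacZ values at another place, and without it 13 genes were higher. Over the 38 genes the median log2 ratio was 0.07 with LacZ, 0.22 with HDAC4 wt and 0.23 with HDAC4 3SA. Over all genes it was 0.01, 0.00 and 0.01. With 1 FPKM added in place of 0.1, the higher counts were 1, 0 and 7, and at a log2 ratio of at least 1 they were 1, 0 and 3.

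**Figure D3:**
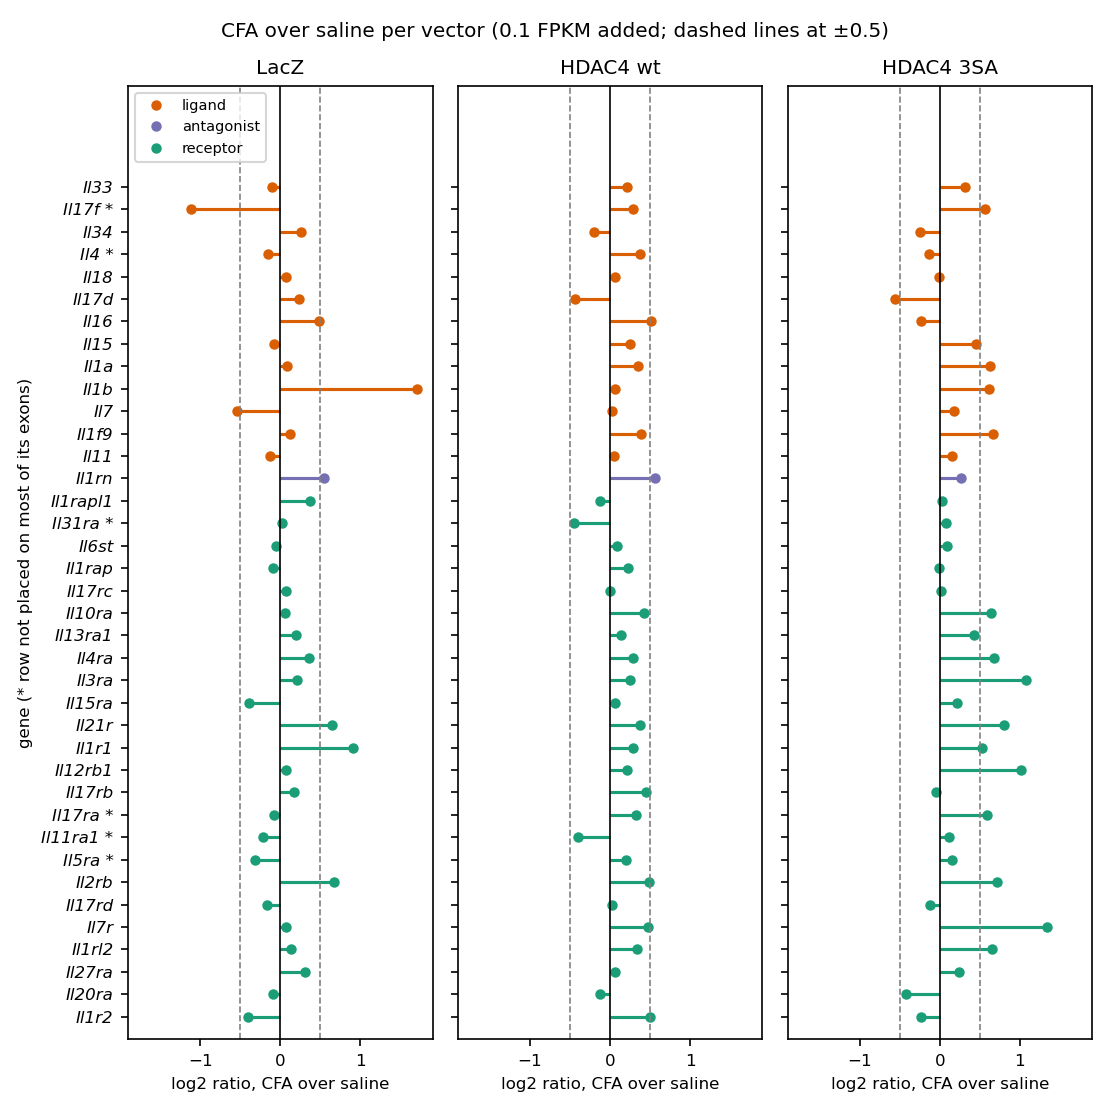
Log2 ratio of CFA over saline (0.1 FPKM added) for the same 38 genes per vector (1 panel each), with a line from 0 to each point, colours for ligands, Il1rn and receptors, and dashed lines at -0.5 and 0.5. Of 24 receptors 3 lie to the right of 0.5 in the LacZ panel, 1 in the HDAC4 wt panel and 10 in the HDAC4 3SA panel. Of all genes 4.48%, 4.84% and 8.88% were higher by the same rule. The 3 include Il2rb and the 10 include Il17ra, each under 0.5 FPKM in both groups compared. The 1 is Il1r2, whose call is lost with its loci summed. Il1b is farthest right in the LacZ panel (1.70), also under 0.5 FPKM in both LacZ groups.

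At saline, HDAC4 wt stood above LacZ in 18 of 37 genes and below it in 4, against 15.7% and 5.41% of all 15714 genes with 1 place in the 3 tables. In HDAC4 3SA mice 18 of 37 were higher and 3 lower, against 12.6% and 3.88%. Both counts use the same LacZ saline group, and so a low value there enters both. In each count 8 of the 18 (Il1a, Il1b, Il1rn, Il1rl2, Il12rb1, Il2rb, Il7r and Il27ra) were under 0.5 FPKM in both LacZ groups and passed the mean through the HDAC4 groups, where they are high. Receptors had median log2 ratios of 0.74 and 0.64 for HDAC4 wt and HDAC4 3SA over LacZ, ligands 0.26 and 0.21, and all genes 0.07 and 0.05. Both receptor medians are the values of Il1rapl1, whose second locus at the same place was near 1 FPKM. Among loci on at least 50% of the exon bases, which leaves out Il31ra, the medians were 1.16 and 0.86 for 20 receptors and 0.37 and 0.27 for 11 ligands. Genes lower than in LacZ mice were Il4 (on the Kif3a place), Il1f9 and Il1r2 in each of these comparisons, and Il7 for HDAC4 wt. Il1r2 was no longer lower once its loci were summed (log2 ratios of -0.03 and -0.07). As plain FPKM ratios, which divide by 0.109 FPKM for Il2rb and 0.0842 for Il1b in LacZ saline mice, the largest of the 37 genes were 14.3-fold for Il2rb and 15.7-fold for Il1b with HDAC4 wt, and 7.30-fold and 10.8-fold for the same genes with HDAC4 3SA. With 0.1 FPKM added, the log2 ratios were 2.99 for Il2rb and 2.95 for Il1b with HDAC4 wt, and 2.45 and 2.10 for Il1b and Il2rb with HDAC4 3SA, where Il21r stood between them, so the order depends on the amount added. Il21r was 7.45-fold and 5.23-fold, Il12rb1 7.12-fold and 2.89-fold, Il10ra 3.23-fold and 2.62-fold, and Il1rn 6.15-fold and 6.18-fold higher than in LacZ mice.

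**Figure D4:**
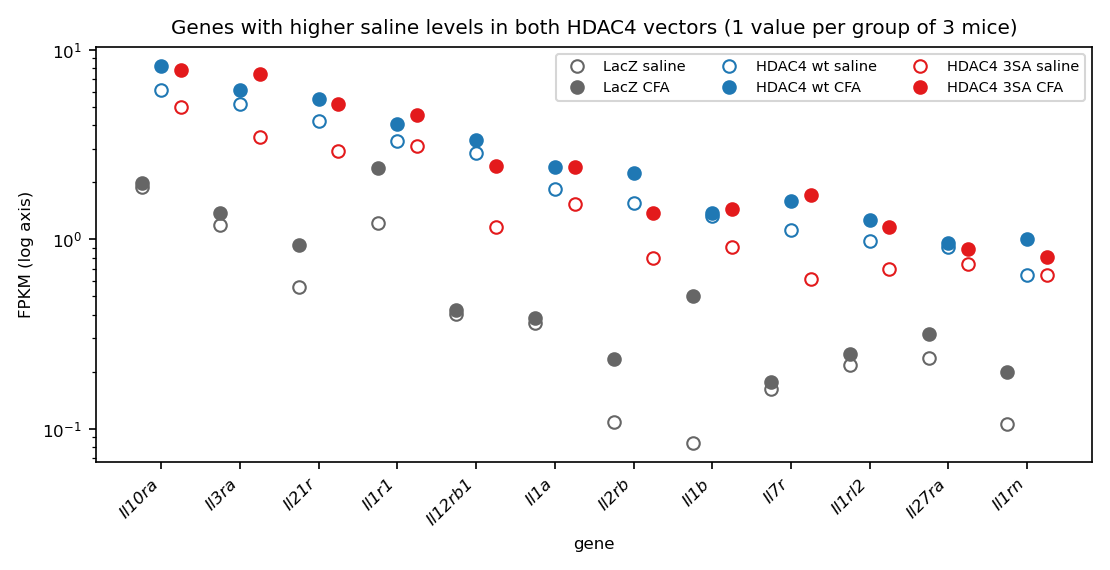
FPKM (log axis) of 12 genes on at least 50% of their exon bases that were higher by a log2 ratio of at least 1 at saline with both HDAC4 vectors, 1 point per group of 3 mice, open for saline and filled for CFA, grey for LacZ, blue for HDAC4 wt and red for HDAC4 3SA. The genes were picked for this difference, so the gap of the grey points is how they were chosen; among the filled grey points, Il1r1 is highest at 2.37 FPKM.

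Markers of immune cells moved with these levels. The summed FPKM of 10 microglia markers (all found, none at 0) was 183 and 211 in LacZ saline and CFA mice, 985 and 1247 in HDAC4 wt mice, and 746 and 1381 in HDAC4 3SA mice. C1qc, a complement gene of microglia, was at 14.02 FPKM in LacZ saline and 123 in HDAC4 wt saline mice, while the homeostatic microglia gene P2ry12 was at 11.1 and 13.9. For 8 T cell markers the sums were 1.28 and 1.97 in LacZ mice, 13.6 and 19.7 in HDAC4 wt mice, and 7.42 and 13.6 in HDAC4 3SA mice, with none at 0. The 7 B and plasma cell markers summed to 28.1 and 32.9, 348 and 373, and 232 and 309 FPKM in the same order. Without Jchain, the highest of these, they summed to 27.9 FPKM in LacZ saline and 85.6 in HDAC4 wt saline mice. The 6 monocyte and border macrophage markers summed to 4.99 and 6.58, 55.8 and 56.3, and 33.8 and 47.7 FPKM, but Ly6c2 alone made up most of this, at 0.172 FPKM in LacZ saline and 48.2 in HDAC4 wt saline mice. The other 5 summed to 4.82 and 5.74, 7.61 and 7.81, and 5.76 and 6.05 FPKM, and 4 of the 5 with HDAC4 wt and 3 with HDAC4 3SA stood above LacZ at saline. Neutrophil markers (10 genes) had another order, with 11.4 and 114 FPKM in LacZ saline and CFA mice, 42.1 and 29.01 with HDAC4 wt, and 62.7 and 39.2 with HDAC4 3SA. The genes higher past the threshold after CFA in LacZ mice (Il1b, Il1rn, Il1r1, Il21r and Il2rb) were higher after CFA with every vector. The neutrophil sum was higher after CFA with LacZ and lower with both HDAC4 vectors. The part of cell numbers in the interleukin values was not tested, and in bulk tissue more cells of a type and more RNA per cell cannot be told apart.

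**Figure D5:**
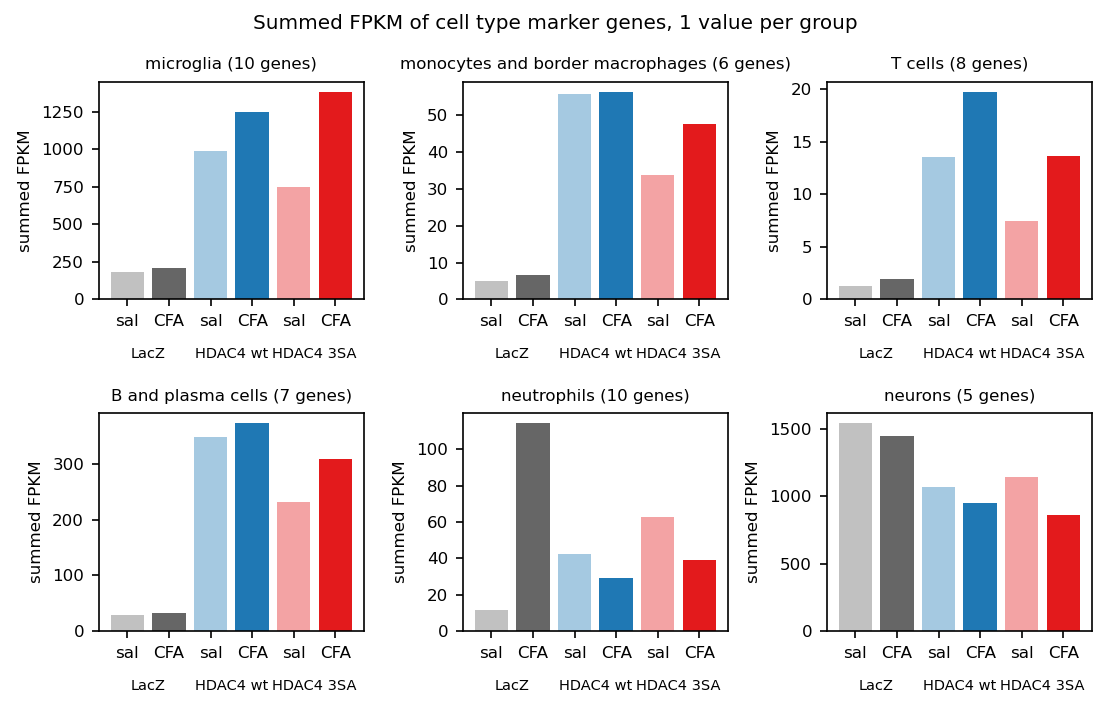
Summed FPKM of the marker genes of 6 cell types in each of the 6 groups, with bars from 0, pale for saline and full colour for CFA, 1 value per group. Microglia, T cell and B cell sums are low in both LacZ groups, as is the macrophage sum through Ly6c2. Neutrophils are highest in LacZ CFA (114), and neuron sums, mostly from Snap25, are highest in LacZ saline mice (1541).

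Markers of central nervous tissue were present, but no list separated dorsal from ventral cord. The 5 astrocyte markers summed to 700 and 701 FPKM with LacZ, 1167 and 1422 with HDAC4 wt, and 1149 and 1477 with HDAC4 3SA. Most of this rise came from Gfap, at 389 FPKM in LacZ saline, 807 in HDAC4 wt saline and 805 in HDAC4 3SA saline mice. Aqp4 and Aldh1l1 were also higher at saline with both HDAC4 vectors, while Slc1a3 and Gja1 were lower. Slc1a3 was at 38.4, 27.2 and 28.4 FPKM in the same order, and Gja1 at 119, 102 and 103. The sum of the 5 neuron markers was lower with HDAC4 vectors, at 1541 and 1446 FPKM with LacZ, 1072 and 952 with HDAC4 wt, and 1144 and 864 with HDAC4 3SA. Snap25 made up most of it, at 1227 FPKM in LacZ saline, 795 in HDAC4 wt saline and 861 in HDAC4 3SA saline mice. Slc17a6 and Slc32a1 were also lower at saline with both HDAC4 vectors. Syt1 (86.2, 90.8 and 84.6 FPKM) and Rbfox3 (71.6, 68.0 and 73.7) were close to level at saline, in the same order of vectors. Of 4 dorsal root ganglion neuron markers 2 were found, with sums of 0.949 and 0.937 FPKM, 3.27 and 10.1, and 6.28 and 7.35, nearly all from Avil. The 3 Schwann cell markers, which belong to nerve roots, summed to 971 and 1499 FPKM with LacZ, 975 and 964 with HDAC4 wt, and 1336 and 831 with HDAC4 3SA. All 3 were higher after CFA past the threshold with LacZ and lower with HDAC4 3SA, and the part of any of these lists in the interleukin values was not tested.

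Of 59 other genes of interleukin signalling, 55 were found and 53 had a mean of at least 0.5 FPKM. After CFA, 6 were higher and 1 lower with LacZ, 0 and 0 with HDAC4 wt, and 17 and 0 with HDAC4 3SA, where 4.48%, 4.84% and 8.88% of all genes were higher. Set against LacZ at saline, 30 were higher and 2 lower with HDAC4 wt, and 24 and 0 with HDAC4 3SA, where 15.7% and 12.6% of all genes were higher. Csf2rb, Csf2rb2, Lif, Nlrp3 and Nlrp1b, counted as higher in both, were under 0.5 FPKM in both LacZ groups. They passed the mean through the HDAC4 groups, where they are high, and Csf2rb is also among the 6 higher after CFA with LacZ. Over the 53 genes the median log2 ratios were 0.06, 0.11 and 0.32 after CFA and 0.60 and 0.37 at saline. The 3 with the largest median change over the vectors were Casp4, which cleaves gasdermin D and aids IL-1 beta release, Csf2rb, the common beta chain that pairs with the product of Il3ra, and Socs3, a feedback inhibitor of gp130 signals. Casp4 was at 0.446 and 0.836 FPKM with LacZ, 3.41 and 4.60 with HDAC4 wt, and 2.35 and 4.39 with HDAC4 3SA. Csf2rb was at 0.251 and 0.490 FPKM with LacZ, 2.96 and 4.14 with HDAC4 wt, and 2.12 and 4.26 with HDAC4 3SA. Socs3 was at 1.14 and 1.91 FPKM with LacZ, 6.34 and 7.65 with HDAC4 wt, and 4.13 and 6.52 with HDAC4 3SA. Csf2rb and Il3ra had the same order of groups, lowest in LacZ saline mice and highest in HDAC4 3SA CFA mice. This order was not particular to the pair, as Il4ra, Il1r1, Il1a, Il1b and the microglia marker C1qc had it too.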

How the data were processed

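RNA of 18 mice was sequenced as strand-specific poly-A libraries with single-end reads of 50 bp. The authors used the mouse genome GRCm38, annotated by Ensembl release 85, TopHat 2.0.14 on Bowtie 2.2.9, and Cuffdiff 2.0.0, and made 1 table for each vector, of 34579 loci. FPKM as deposited are Cuffdiff estimates, 1 per group over its 3 mice, so the 3 mice cannot be told apart. The tables' fold changes, test statistics, p-values and q-values are the authors' own comparisons and were not used; the status column served as a mark of too few reads.

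Loci were matched between tables by identifier, with names required to be equal. Ratios were log2((a + 0.1)/(b + 0.1)) at a mean of at least 0.5 FPKM, called past 0.5. Places were compared with GENCODE M21 exons; 3 loci that name an interleukin gene together with another gene were left out. Every gene that reached 0.5 FPKM is named; all 6 values are given for those that reached 2 FPKM, passed 0.5 in at least 2 vectors, differed by a log2 ratio of at least 1 at saline between vectors at a mean of at least 0.5 FPKM, or were listed by name, and of other pathway genes for the 3 with the largest median change. Genes and lists were chosen with earlier results of these data known. Alternatives were another FPKM added, other levels and thresholds, summed loci and centring, and, added after seeing the data, loci on at least 50% of the exon bases, 0.5 FPKM in a group compared, and marker sums without their highest gene. Python 3.11.15, pandas 2.3.3, numpy 2.4.6 and matplotlib 3.10.9 were used.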

Additional observations from a re-analysis of the deposited data

Results flagged for a closer look

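The 3 loci that carry the name of an interleukin gene and of a neighbour were outside the comparisons, and each stood above its LacZ saline value at saline with both HDAC4 vectors. The locus of Gm20489 and Il2rg, the latter the common gamma chain shared by the receptors of IL-2, IL-4, IL-7, IL-15 and IL-21, was at 0.688 FPKM in LacZ saline mice, 10.4 in HDAC4 wt saline and 6.04 in HDAC4 3SA saline mice. After CFA it was at 1.35, 13.3 and 12.4 FPKM in the same order of vectors. The locus of Ifnar2, an interferon receptor chain, and Il10rb, the shared chain of the IL-10 family receptors, was at 9.89 FPKM in LacZ saline mice, 22.0 in HDAC4 wt saline and 18.7 in HDAC4 3SA saline mice. After CFA it was at 11.6, 26.9 and 28.1 FPKM. The locus of Il18bp, whose protein binds and blocks IL-18, and Rnf121 was at 6.64 FPKM in LacZ saline mice, 8.05 in HDAC4 wt saline and 7.66 in HDAC4 3SA saline mice. After CFA it was at 6.45, 8.83 and 8.56 FPKM. The share of each name in these values is not given, and no test was run.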

How the results depend on the processing

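No paired analysis was possible because the tables hold 1 pooled value per group, and leaving out a mouse could not be run for the same reason. Of 104 alternative counts over 11 results, 73 stayed within 1.5 times and 31 moved further; the cause was not tested beyond what each setting does. With 1 FPKM added, genes higher after CFA numbered 1 with LacZ, 0 with HDAC4 wt and 7 with HDAC4 3SA, genes lower 1 with LacZ and 0 with HDAC4 3SA, and genes lower at saline 2 for HDAC4 wt and 1 for HDAC4 3SA over LacZ. Among genes reaching 0.5 FPKM in any group, 5 were higher with HDAC4 wt and 3 lower with HDAC4 3SA after CFA, and 6 lower at saline for HDAC4 3SA. At a mean of at least 1 FPKM, 3 were higher and 1 lower in LacZ mice, 1 higher in HDAC4 wt mice, and 1 lower at saline for each HDAC4 vector. Without a filter, 9 were higher with LacZ, 5 higher with HDAC4 wt and 4 lower with HDAC4 3SA, and at saline 30 were higher for HDAC4 wt and 29 higher and 6 lower for HDAC4 3SA. At a log2 ratio of at least 1, LacZ had 1 higher and 1 lower, HDAC4 wt 0 higher, HDAC4 3SA 3 higher and 0 lower, and at saline 1 was lower for HDAC4 wt and 0 for HDAC4 3SA. With loci of a name summed, 0 were lower in HDAC4 3SA mice. With loci on at least 50% of the exon bases, chosen after seeing the data, 1 was lower in LacZ mice. With 0.5 FPKM required in a group compared, also chosen after seeing the data, 2 were higher in LacZ mice. Since each value stands for 3 mice, with no spread and no depth per library in the tables, small differences of low genes cannot be separated from error.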

Other observations

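Meningeal fibroblast markers (6 genes) summed to 127 and 172 FPKM in LacZ saline and CFA mice and to between 159 and 182 in the other groups, and endothelial markers (6 genes) to between 63.7 and 93.7 FPKM over the 6 groups.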
